A study of Rattus norvegicus with 24 samples.

Results

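The genes described are 9 that mark B cells and the plasma cells they become: Cd79a, Cd79b, Ms4a1, Pax5, Tnfrsf13c and Cxcr5 for B cells, and Jchain, Mzb1 and Tnfrsf17 for plasma cells. They were chosen by name, and 8 of the 9, out of 32489 rows in the expression table, have a row of that name; no row is named Cd79a. RNA came from whole lungs of male Wistar rats, 5 to 6 weeks old and weighing 170 to 190 g, that received particles of silica at 200 mg/mL or normal saline through the trachea. The 4 groups were silica at day 14, saline at day 14, silica at day 28 and saline at day 28, with 6 libraries in each and 24 in all. Every animal, saline controls included, underwent instillation; the animals are of an outbred stock and carry no allele or transgene in the labels. Levels are FPKM as the authors deposited them, a measure of fragments that corrects for gene length and for library size.

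Surface Cd79a and Cd79b pair into the signalling part of the B cell antigen receptor, and Pax5 is the transcription factor that keeps a cell in the B lineage. A B cell that becomes a plasma cell turns off Pax5 and the antigen receptor programme, and turns on the machinery that folds and exports antibody, of which Mzb1 and Jchain are parts. In the lung, B cells are known to gather in bronchus-associated lymphoid tissue, and plasma cells below the airway lining supply secreted antibody. In whole-lung RNA, fewer cells of a type and less RNA per cell cannot be told apart.

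The labelled tissue fitted its markers: the summed level of 4 lung epithelial genes (Sftpc, Sftpb, Ager and Scgb1a1) was 22100 FPKM or more in every library. Depth, as reads recovered from the steps in the FPKM values, was 55.06 to 84.6 M (mega) reads in a library. The percent of them on 37 mitochondrial genes had a median of 2.22 in silica and 2.28 in saline lungs at day 14, and of 2.54 in silica and 5.03 in saline lungs at day 28. Saline day 28 replicates 1, 2 and 6 had the highest percents, at 8.93, 5.66 and 7.37, and several day 28 results are also given without them.

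Instillation of silica was not followed by a detected change in any B cell or plasma cell gene. Called means a Benjamini-Hochberg adjusted p under 0.05 in limma over all 20856 genes tested; all 8 genes with a row passed the filter on low values. At day 14, 0 of the 8 were called, against 4.37% of all genes tested, and at day 28, 0 of the 8, against 13.8% of all genes. At an unadjusted p under 0.05 the count was also 0 of 8 on both days, against 20.3% of all genes at day 14 and 31% at day 28. A second limma test, limma-voom on the recovered reads, also called 0 of 8 on each day. The smallest adjusted p among the 8 was 0.706 at day 14 and 0.379 at day 28. The silica and saline libraries overlapped for each of the 8 genes on both days, whereas 5.0% of all genes at day 14 and 2.92% at day 28 had groups without overlap. The median log2 change of the 8 genes was -0.11 at day 14 and 0.21 at day 28, beside medians of -0.0023 and -0.0292 over all genes tested.

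**Figure D1:**
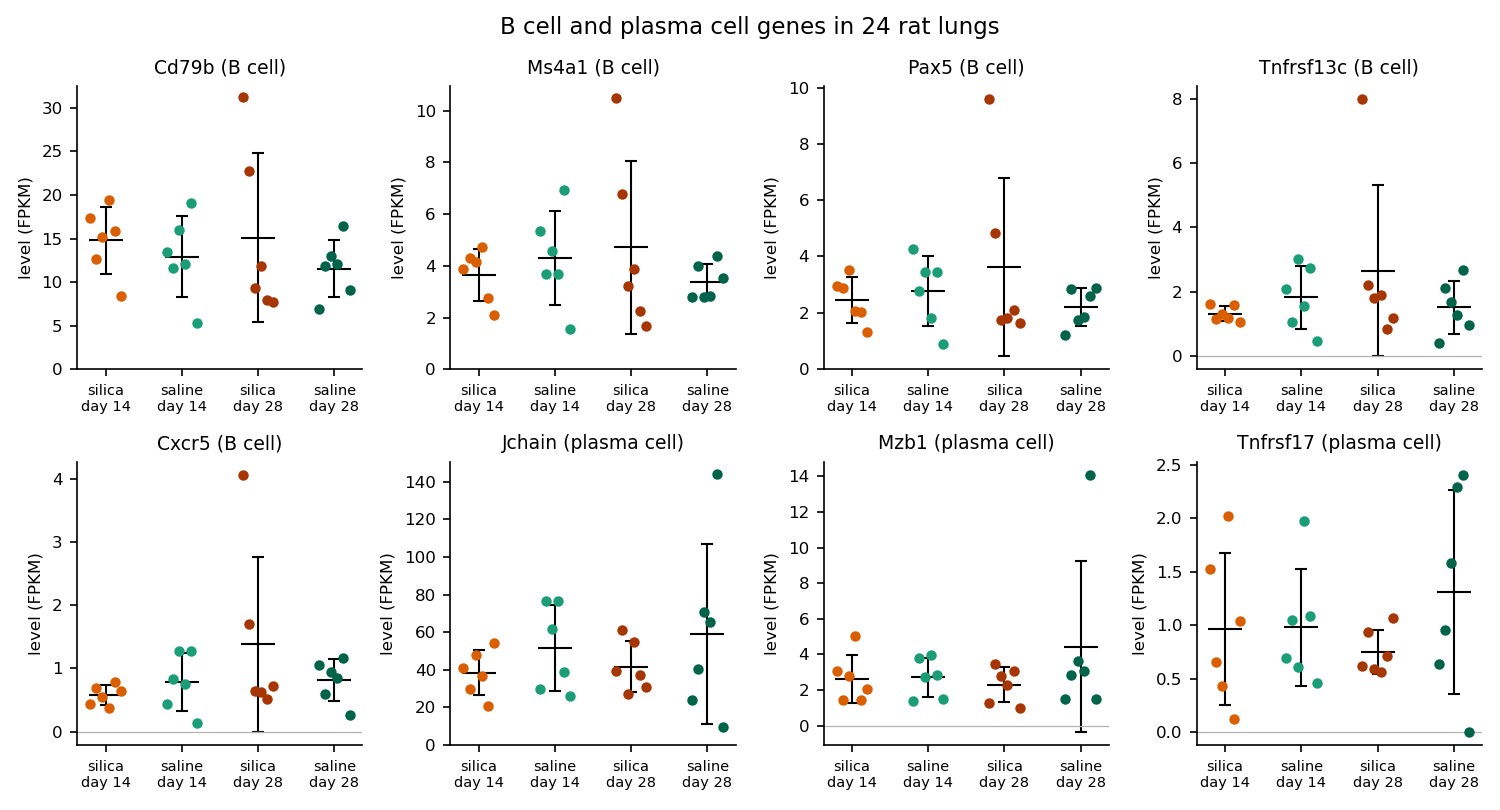
Level (FPKM, linear axis) of the 8 genes with a row in each of 24 lungs, by group; points are libraries and black marks are the mean and SD of 6 libraries. The silica and saline points overlap in every panel, and single libraries stand high: a silica day 28 lung for the B cell genes (31.2 FPKM of Cd79b) and a saline day 28 lung for the plasma cell genes (144 FPKM of Jchain).

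Cd79b (ENSRNOG00000011917), a chain of the antigen receptor, had the highest level of the 5 B cell genes with a row. At day 14 its lowest, median and highest levels were 8.39, 15.6 and 19.4 FPKM in silica lungs, and 5.27, 12.8 and 19.1 FPKM in saline lungs. At day 28 they were 7.67, 10.5 and 31.2 FPKM in silica lungs, and 6.95, 12.0 and 16.4 FPKM in saline lungs. The silica range thus enclosed nearly the whole saline range at day 28, and 2 silica lungs, replicate 1 at 31.2 FPKM and replicate 2 at 22.8 FPKM, lay above all saline lungs. The log2 change on the log2(FPKM + 1) scale was 0.23 (SE 0.308, limma adjusted p = 0.732) at day 14 and 0.21 (SE 0.308, adjusted p = 0.685) at day 28. The 95% intervals, -0.41 to 0.864 and -0.43 to 0.844, leave room for a change in either direction.

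For Cd79a, the partner chain, the RefSeq gene table lists Cd79al as a synonym. A row named Cd79al (ENSRNOG00000049925) and a row with the provisional name AABR07002700.1 (ENSRNOG00000020125) both carry the description CD79A antigen, so that reads of 1 gene could have been split between them and neither level is certain. Cd79al averaged 11.3 ± 5.66 FPKM (SD, n = 6) in silica and 7.58 ± 2.71 FPKM in saline lungs at day 28. Its log2 change was 0.49 (SE 0.326, limma adjusted p = 0.313) at day 28 and 0.32 (adjusted p = 0.632) at day 14. AABR07002700.1 averaged 19.6 ± 11.9 FPKM in silica and 15.8 ± 3.26 FPKM in saline lungs at day 28, a log2 change of 0.10 (SE 0.324, adjusted p = 0.858). Neither row was called.

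Ms4a1 (ENSRNOG00000020945) encodes CD20, a membrane protein of mature B cells that plasma cells lack. Its lowest, median and highest levels at day 14 were 2.08, 4.02 and 4.72 FPKM in silica lungs, and 1.55, 4.13 and 6.94 FPKM in saline lungs. The day 28 levels were 1.67, 3.55 and 10.5 FPKM in silica lungs, and 2.79, 3.17 and 4.39 FPKM in saline lungs. Silica lungs at day 28 lay both below and above the whole saline range. The log2 change was -0.14 (SE 0.288, limma adjusted p = 0.832) at day 14 and 0.21 (SE 0.288, adjusted p = 0.660) at day 28.

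Pax5 (ENSRNOG00000024729), the B lineage transcription factor, had a lowest, median and highest level of 1.30, 2.47 and 3.52 FPKM in silica lungs at day 14, and of 0.899, 3.11 and 4.28 FPKM in saline lungs. At day 28 these were 1.62, 1.95 and 9.61 FPKM in silica lungs, and 1.22, 2.23 and 2.87 FPKM in saline lungs. The median at day 28 was the lower one in silica although the mean log2 level was the higher one: the log2 change was 0.34 (SE 0.30, limma adjusted p = 0.459), with a 95% interval of -0.278 to 0.965. At day 14 the log2 change was -0.09 (SE 0.30, adjusted p = 0.908).

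Tnfrsf13c (ENSRNOG00000007664) encodes the BAFF receptor, through which mature B cells receive a survival signal. At day 14 its lowest, median and highest levels were 1.06, 1.24 and 1.63 FPKM in silica lungs, and 0.473, 1.83 and 3.01 FPKM in saline lungs, so that the silica lungs lay inside the saline range. At day 28 they were 0.848, 1.84 and 8.0 FPKM in silica lungs, and 0.402, 1.48 and 2.69 FPKM in saline lungs. The log2 change was -0.21 (SE 0.303, limma adjusted p = 0.754) at day 14 and 0.38 (SE 0.303, adjusted p = 0.413) at day 28, where the 95% interval ran from -0.247 to 1.007.

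Cxcr5 (ENSRNOG00000012430) encodes the receptor for the chemokine Cxcl13 that draws B cells into follicles; follicular helper T cells carry it too. Its lowest, median and highest levels at day 14 were 0.375, 0.600 and 0.793 FPKM in silica lungs, and 0.143, 0.793 and 1.28 FPKM in saline lungs. The day 28 levels were 0.516, 0.680 and 4.07 FPKM in silica lungs, and 0.269, 0.899 and 1.16 FPKM in saline lungs. It had the lowest levels of the 5 B cell genes, with 26 to 754 recovered reads per library, against 417 to 2523 for Cd79b. The log2 change was -0.14 (SE 0.235, limma adjusted p = 0.791) at day 14 and 0.26 (SE 0.235, adjusted p = 0.478) at day 28. For 3 of the 5 B cell genes at day 28 the median was lower in silica than in saline, while the log2 change was above 0 for all 5.

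Jchain (ENSRNOG00000003666) encodes the joining chain that links IgM and IgA into polymers for secretion, and had the highest level of the 8 genes. Jchain at day 14 had a lowest, median and highest level of 21.0, 38.9 and 54.5 FPKM in silica lungs, and 26.0, 50.1 and 76.8 FPKM in saline lungs. At day 28 Jchain was at 27.0, 38.2 and 61.0 FPKM in silica lungs, and 9.61, 53.0 and 144 FPKM in saline lungs. Both the lowest and the highest Jchain level of the series were thus in saline lungs at day 28, and the silica lungs lay between them. The log2 change was -0.35 (SE 0.439, limma adjusted p = 0.706) at day 14 and -0.11 (SE 0.439, adjusted p = 0.886) at day 28, with 95% intervals of -1.257 to 0.559 and -1.021 to 0.795. These were the widest intervals of the 8 genes.

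Mzb1 (ENSRNOG00000022009) encodes a chaperone of the endoplasmic reticulum that helps antibody assembly. Its lowest, median and highest levels at day 14 were 1.42, 2.44 and 5.03 FPKM in silica lungs, and 1.41, 2.80 and 3.95 FPKM in saline lungs. The day 28 levels were 0.976, 2.52 and 3.46 FPKM in silica lungs, and 1.5, 2.96 and 14.1 FPKM in saline lungs. The log2 change was -0.05 (SE 0.344, limma adjusted p = 0.956) at day 14 and -0.46 (SE 0.344, adjusted p = 0.379) at day 28, the smallest adjusted p of the 8 genes on either day.

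Tnfrsf17 (ENSRNOG00000021987) encodes BCMA, a receptor that binds BAFF and APRIL and supports long-lived plasma cells. Tnfrsf17 at day 14 had a lowest, median and highest level of 0.124, 0.848 and 2.02 FPKM in silica lungs, and 0.458, 0.874 and 1.98 FPKM in saline lungs. At day 28 Tnfrsf17 was at 0.567, 0.667 and 1.07 FPKM in silica lungs, and 0, 1.27 and 2.41 FPKM in saline lungs. The 0 was saline day 28 replicate 6, where 0 reads were recovered; a limit of 3 reads corresponds to 0.0564 FPKM in that library. The log2 change was -0.05 (SE 0.262, limma adjusted p = 0.943) at day 14 and -0.29 (SE 0.262, adjusted p = 0.475) at day 28. With 162 reads at most in a library, it was the least deeply counted of the 8 genes.

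**Figure D2:**
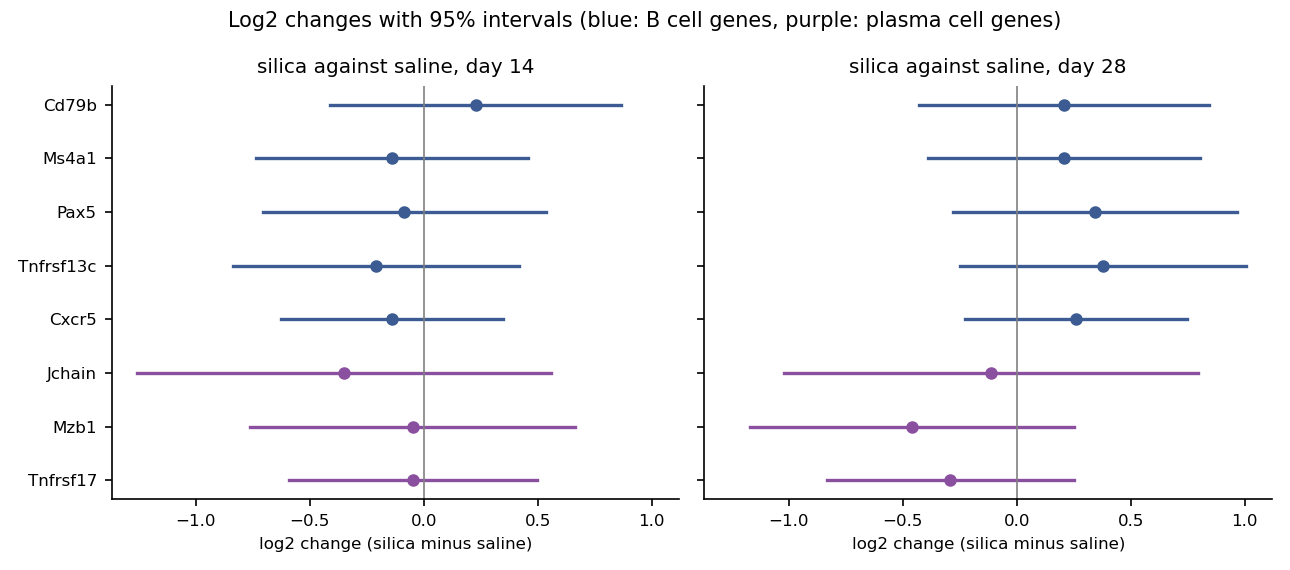
Log2 change, silica minus saline, of the 8 genes at day 14 (left) and day 28 (right) from limma on log2(FPKM + 1); points are estimates and lines 95% intervals. Every interval crosses 0; at day 28 all 5 B cell genes lie above 0 and all 3 plasma cell genes below it.

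The plan was to show the promoters of those genes that hold the octamer ATTTGCAT on either strand. RefSeq promoter sequences of build GRCr8, the 250 bases before each gene's start, were found for 4 of the 9 genes, and 0 of the 4 held it. Those of Tnfrsf13c, of the B cell set, and of Tnfrsf17 and Jchain, of the plasma cell set, are shown, a choice made after the matches were known; the fourth is Cd79a. The capitals mark matches on either strand to the E-box letters CAGCTG or CAGGTG, which E2A and related factors can bind, and to the TATA letters TATAAA. They lie at chr7:115618648-115618897 (minus strand), chr10:4813773-4814022 (minus strand) and chr14:19822726-19822975 (plus strand).
Tnfrsf13c: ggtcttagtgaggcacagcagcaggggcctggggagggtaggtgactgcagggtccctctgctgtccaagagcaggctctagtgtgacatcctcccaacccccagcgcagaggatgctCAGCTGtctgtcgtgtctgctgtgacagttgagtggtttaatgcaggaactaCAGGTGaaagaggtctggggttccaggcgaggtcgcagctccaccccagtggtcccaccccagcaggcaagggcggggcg
Tnfrsf17: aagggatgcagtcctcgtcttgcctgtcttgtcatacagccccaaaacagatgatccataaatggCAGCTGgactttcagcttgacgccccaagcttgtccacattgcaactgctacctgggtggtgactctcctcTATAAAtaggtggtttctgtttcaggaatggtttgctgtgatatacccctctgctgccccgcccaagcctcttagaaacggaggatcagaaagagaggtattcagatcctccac
Jchain: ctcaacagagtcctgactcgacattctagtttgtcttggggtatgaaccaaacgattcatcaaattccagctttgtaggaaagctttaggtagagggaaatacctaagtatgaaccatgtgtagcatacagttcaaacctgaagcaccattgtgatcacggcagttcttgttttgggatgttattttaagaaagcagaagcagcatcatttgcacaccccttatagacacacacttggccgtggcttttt
In Tnfrsf13c, CAGCTG begins 132 and CAGGTG 80 bases before the start. In Tnfrsf17, CAGCTG begins 185 and TATAAA 114 bases before it. CAGCTG stood in 2 of the 4 member promoters and in 11.97% of all 33469 promoters of the table, CAGGTG in 2 of 4 and 15.9%, and TATAAA in 1 of 4 and 12.93%. The ETS letters GGAAGT stood in 1 of 4 and 19.22%. The octamer ATTTGCAT, a motif known from immunoglobulin promoters, had a match in 0 of 4 windows and in 1.56% of all. No 2 of the searched motifs overlapped in the sequences shown, and a match describes letters only.

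The silica effect was next compared between the days. At day 28 minus day 14, limma called 0 of the 8 genes, against 9.93% of all genes, and 0 had an unadjusted p under 0.05. The estimates were widest apart for Tnfrsf13c, at 0.59 on the log2 scale (SE 0.428, limma adjusted p = 0.373), with a 95% interval of -0.299 to 1.474. Pax5 followed the same direction at 0.43 (adjusted p = 0.525) and Cxcr5 at 0.40 (adjusted p = 0.442). Mzb1 had the lowest estimate, -0.41 (adjusted p = 0.605). Without the 3 saline day 28 libraries of high mitochondrial percent, Tnfrsf17 was at -0.77 (limma unadjusted p = 0.0278, adjusted p = 0.211). With the mitochondrial covariate Tnfrsf17 was at -0.76 (unadjusted p = 0.0489, adjusted p = 0.303).

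Day 28 was then set against day 14 within each treatment, comparisons that share their libraries with those above. In silica lungs limma called 0 of the 8 genes, against 0.00479% of all genes, which is 1 gene. The smallest unadjusted p was 0.0745, for Cxcr5, which averaged 1.38 ± 1.39 FPKM (SD, n = 6) at day 28 and 0.584 ± 0.159 FPKM at day 14, a log2 change of 0.44 (SE 0.235, limma adjusted p = 0.596). In saline lungs 0 of the 8 were called, against 25.2% of all genes, and 0 had an unadjusted p under 0.05. The estimates there ran between -0.21 for Ms4a1 and 0.29 for Mzb1, and the smallest adjusted p was 0.567. These saline estimates moved without the 3 saline day 28 libraries of high mitochondrial percent. Jchain was then at 0.88 (limma unadjusted p = 0.0261, adjusted p = 0.177) and Mzb1 at 0.88 (unadjusted p = 0.0309, adjusted p = 0.19). Tnfrsf17 was at 0.67 (unadjusted p = 0.0147, adjusted p = 0.138), and none of the 8 genes was called.

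In the authors' deposited table, 0 of the 8 genes had an FDR under 0.05 in each of its 3 comparisons. The smallest FDR in the authors' deposited table was 0.394 for silica over saline at day 14 and 0.25, for Pax5, at day 28, with a log2 fold change of 0.783. For silica at day 14 over silica at day 28, the reverse of the direction used above, the authors' deposited table gives a log2 fold change of -1.25 for Cxcr5 (p = 0.0113, FDR 0.285) and of -1.03 for Tnfrsf13c (p = 0.0277, FDR 0.396). In silica day 28 replicate 1 these genes stood at 4.07 and 8.0 FPKM, against at most 1.71 and 2.2 FPKM in the other silica lungs of that day. With 1 library left out in turn, limma gave day 28 over day 14 log2 changes of 0.19 to 0.54 for Cxcr5 in silica lungs. For Tnfrsf13c they were 0.13 to 0.59. Both ranges are on the log2(FPKM + 1) scale, which understates changes of low genes. With a pseudocount of 0.1 and all libraries, the change was 0.76 for Cxcr5 (limma adjusted p = 0.631) and 0.58 for Tnfrsf13c (adjusted p = 0.726).

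The spread between lungs of 1 group was large for all these genes. The within-group SD of log2(FPKM + 1), pooled over the 4 groups, was 0.566 for Cd79b, 0.811 for Jchain and 0.423 for Cxcr5, against a median of 0.267 over all genes tested. Among the genes tested these SDs stood between the 80.6th percentile (Cxcr5) and the 95.9th percentile (Jchain). The spread was not alike in the groups. The B cell genes varied most in silica lungs at day 28, with an SD of 0.794 for Cd79b, against 0.395 in saline lungs at day 28. The plasma cell genes varied most in saline lungs at day 28, with SDs of 0.446 in silica and 1.32 in saline lungs for Jchain.

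Silica day 28 replicate 1 held the highest level of all 24 libraries for 5 of the 5 B cell genes with a row. It had 31.2 FPKM of Cd79b, 10.5 of Ms4a1, 9.61 of Pax5, 8.0 of Tnfrsf13c and 4.07 of Cxcr5. Silica day 28 replicate 2 came second for Cd79b, at 22.8 FPKM, for Pax5, at 4.85 FPKM, and for Cxcr5, at 1.71 FPKM. The other 4 silica lungs at day 28 lay within the saline range for these 3 genes, with Cd79b between 7.67 and 11.8 FPKM. For the plasma cell genes replicate 1 was unremarkable, ranking 13th of 24 for Jchain, 23rd for Mzb1 and 17th for Tnfrsf17. Without replicate 1 the day 28 log2 changes of the B cell genes were -0.03 for Cd79b, -0.03 for Ms4a1, 0.06 for Pax5, 0.075 for Tnfrsf13c and 0.0098 for Cxcr5. At the other end, saline day 14 replicate 6 had the lowest level of 24 for 4 of the 5 B cell genes.

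Some other genes of B cells and lymphoid tissue also stood high in the same library. It held the highest of 24 levels for 8 of 21 genes of B cell receptor signalling and identity, 5 of 20 ligands, chemokines and niche genes and 2 of 7 lymphoid stroma genes, lists that share members. The most that any 1 other library held was 2, 6 and 2 genes of these lists in that order. Only the count of B cell genes thus stood apart from the other libraries. Other genes of these lists were not high there: Lyn and Ltbr ranked 24th, Ebf1 22nd, Btk 15th, Blk 12th and Ccl21 6th. The genes with values below were chosen after their values were seen. Silica day 28 replicate 1 had the highest level of the 24 libraries for Cr2, the complement receptor of B cells and follicular dendritic cells, at 10.9 FPKM against at most 4.62 in the other libraries, and for Fcer2, the low-affinity IgE receptor, at 9.98 FPKM against at most 5.22. Ccl19, a chemokine of lymphoid stroma, stood at 34.1 FPKM against at most 20.9 elsewhere, and Ccl20, which attracts Ccr6-bearing cells, at 11.4 FPKM against at most 6.95. Cxcl13, the ligand of Cxcr5, was second highest at 19.7 FPKM, and Glycam1, a mucin of high endothelial venules in mouse lymph nodes, second highest at 50.1 FPKM. In both cases the highest library was a saline day 14 lung, at 20.3 FPKM for Cxcl13 and 51.0 FPKM for Glycam1.

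The summed level of 7 lymph node and lymphoid stroma genes was 228 FPKM in this library, the highest of the 24. Its range was 106 to 165 in silica and 86.7 to 193 in saline lungs at day 14, and 98.1 to 228 in silica and 61.9 to 183 in saline lungs at day 28. Of these 7 genes, 0 were at 0 in every library, and 0 of the 6 tested were called at either day. The sum of 8 T cell genes was 134 FPKM in this library, which ranked 3 of 24, within ranges of 88.1 to 134 in silica and 50.4 to 163 in saline lungs at day 28. The sums of the 4 lung epithelial genes, 22100 FPKM, and of 5 macrophage genes, 68.6 FPKM, were the lowest of the 24. Of 6 thymus genes, Foxn1 was highest of the 24 in it, at 0.349 FPKM against at most 0.0606 FPKM elsewhere, and Rag1 ranked 4th, at 0.0458 FPKM. Dntt, at 0.0893 FPKM, ranked 18th and Cd1d1, at 13.7 FPKM, 21st, while Rag2 and Ptcra were at 0 in it. The part of lymphoid tissue or of its amount in the sampled piece of lung in these levels was not tested.

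The plasma cell genes had their highest levels in another library. Saline day 28 replicate 5 ranked first of 24 for 3 of 3, with 144 FPKM of Jchain, 14.1 of Mzb1 and 2.41 of Tnfrsf17. Ighm (ENSRNOG00000034190), the IgM heavy chain and the 1 immunoglobulin gene that a search of the gene names found, was also highest there, at 826 FPKM. The search did not cover hyphenated names of variable segments or names held by more than 1 row. For the B cell genes this library ranked between 4th (Tnfrsf13c) and 12th (Pax5). The sum of the 8 T cell genes, 163 FPKM, was the highest of the 24 in it. Ighm averaged 212 ± 96.6 FPKM (SD, n = 6) in silica and 357 ± 265 FPKM in saline lungs at day 28, a log2 change of -0.54 (SE 0.47, limma adjusted p = 0.456). At day 14 it averaged 216 ± 80.6 FPKM in silica and 254 ± 96.7 FPKM in saline lungs, a log2 change of -0.22 (adjusted p = 0.839).

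**Figure D3:**
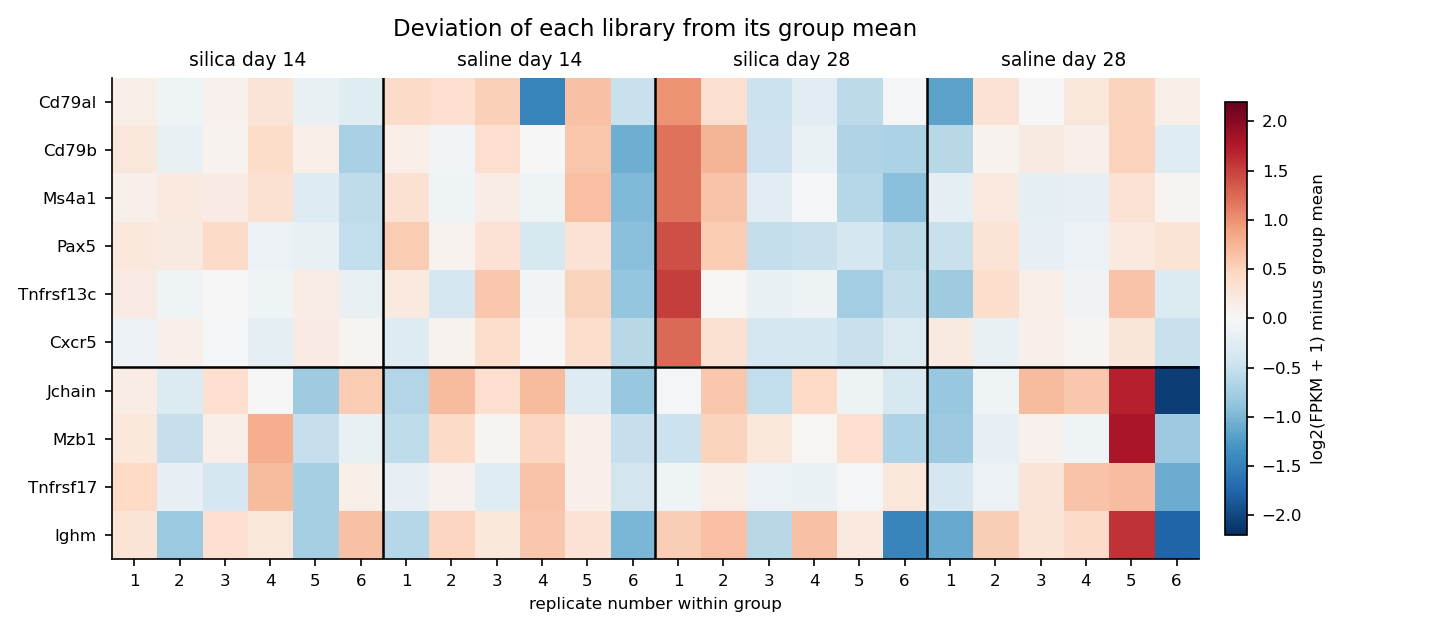
Deviation of each of 24 libraries (columns, by group and replicate number) from its group mean, in log2(FPKM + 1), for the B cell rows (above the line, with Cd79al) and the plasma cell rows with Ighm (below it). Silica day 28 replicate 1 is red across the B cell rows and near white or blue for Jchain, Mzb1 and Tnfrsf17; saline day 28 replicate 5 is deepest red and replicate 6 deepest blue in the Jchain row.

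In saline lungs at day 28 the plasma cell genes were lowest in the libraries with the most mitochondrial reads. The 3 libraries with the highest mitochondrial percent, replicates 1, 2 and 6, had the 3 lowest Jchain levels of the group, 24, 40.4 and 9.61 FPKM. Replicates 3, 4 and 5 had 71.0, 65.7 and 144 FPKM. Without the 3 libraries the day 28 log2 change was -1.11 for Jchain (limma adjusted p = 0.253), -1.06 for Mzb1 (adjusted p = 0.277) and -0.82 for Tnfrsf17 (adjusted p = 0.217), and Cd79b turned to -0.07 (adjusted p = 0.955). Tnfrsf13c was then at 0.15 (adjusted p = 0.893) and Cxcr5 at 0.11 (adjusted p = 0.90), against 0.38 and 0.26 with all libraries, while Ms4a1 was at 0.23 and Pax5 at 0.38. With the mitochondrial percent as a covariate it was -1.24 for Jchain (adjusted p = 0.395), -1.13 for Mzb1 (adjusted p = 0.384) and -0.88 for Tnfrsf17 (adjusted p = 0.357). The unadjusted p of these 3 genes fell under 0.05 in both fits, between 0.00404 and 0.0155. The remaining saline group holds 3 lungs, 1 of which is replicate 5. Without replicate 5 alone, the day 28 log2 change was 0.23 for Jchain, -0.10 for Mzb1 and -0.15 for Tnfrsf17. Without replicate 6 alone it was -0.53, -0.62 and -0.51 for the same genes in that order.

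Whether the genes varied together was asked over the 24 libraries, each centred on its group mean, in 45 pairs of genes. Ms4a1 and Cd79b had a Pearson r of 0.902 (within-group permutation p = 1e-05, the smallest 100000 permutations can give; adjusted 0.00015) and a Spearman rho of 0.801 (permutation p = 0.0001, adjusted 0.00075). Without the 2 libraries farthest from the median of Cd79b, r was 0.833. Over the 10 pairs of B cell genes r lay between 0.658 and 0.902, and 10 of 10 passed an adjusted p of 0.05 by r and 8 of 10 by rho. Without the 2 farthest libraries r lay between 0.312 and 0.833; the lowest, Pax5 with Cxcr5, dropped to 0.312 with an r of 0.658 over all 24, so that much of that pair's relation rests on those libraries.

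The plasma cell genes formed a second set. Mzb1 and Jchain had a Pearson r of 0.757 (permutation p = 0.00062, adjusted 0.0025) and a rho of 0.699 (permutation p = 0.00045, adjusted 0.002), and r was 0.616 without the 2 farthest libraries. All 3 pairs of plasma cell genes passed, with r of 0.665 to 0.757. Ighm with Jchain had an r of 0.886 (permutation p = 1e-05, adjusted 0.00015), a rho of 0.83 (permutation p = 1e-05, adjusted 0.00015) and an r of 0.817 without the 2 farthest. Ighm also varied with a B cell gene, Cd79b, at an r of 0.546 (permutation p = 0.0065, adjusted 0.015), though not past the threshold by rho, at 0.439 (permutation p = 0.049, adjusted 0.095), and at an r of 0.503 without the 2 farthest; with the other 4 B cell genes r was 0.283 to 0.497 and 0 of 4 passed. Between the 5 B cell and 3 plasma cell genes, Ighm aside, r lay between -0.073 and 0.373 over 15 pairs and 0 of 15 passed by r or by rho. The pair with the highest r was Jchain with Cd79b, at 0.373 (permutation p = 0.042, adjusted 0.078) and a rho of 0.405 (permutation p = 0.051, adjusted 0.095), with an r of 0.371 without the 2 farthest libraries. Mzb1 with Cd79b had the highest rho of the 15, 0.423 (permutation p = 0.048, adjusted 0.095). Without the 2 farthest libraries the 15 pairs had r of -0.159 to 0.495. The highest of these, Mzb1 with Cd79b, exceeded the lowest such r within the B cell genes, 0.312.

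**Figure D4:**
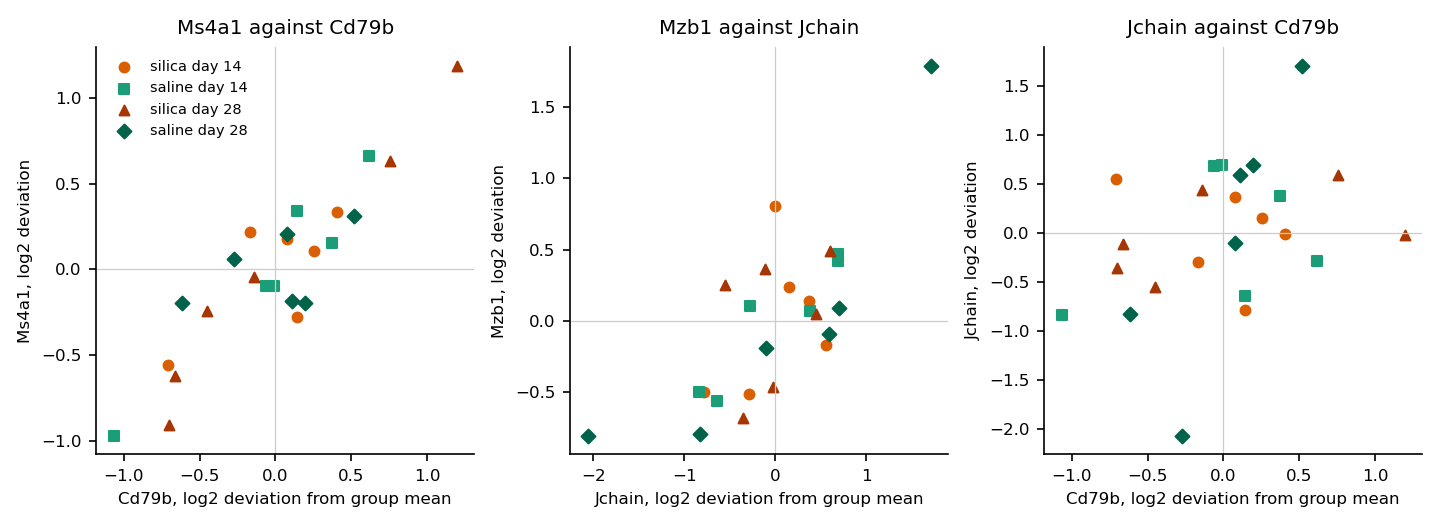
Deviation from the group mean, in log2(FPKM + 1), of Ms4a1 against Cd79b, Mzb1 against Jchain, and Jchain against Cd79b; each point is 1 of 24 libraries, with colour and shape for the group. The first pair lies along a line (r = 0.902), the second less tightly (r = 0.757), and the third is scattered (r = 0.373).

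Among the named genes whose levels were most like Cd79b over the 24 centred libraries, by Pearson r among the genes tested, were Btla (0.888), Cmahp (0.879), Fcmr (0.867), Fcer2 (0.84), Cd37 (0.83), Traf3ip3 (0.828) and Il21r (0.824). Btla is an inhibitory receptor of B and T cells, and Fcmr the IgM receptor of B cells. For Jchain they were Ighm (0.886), Tab2 (0.823), Psap (0.8), Crk (0.797), Clec2d2 (0.788), Adipor2 (0.788), Ncoa4 (0.772) and Tyw1 (0.767). Psap encodes a lysosomal activator protein and Tab2 an adaptor of the kinase TAK1. These are descriptions over 24 libraries that share 1 tissue and vary in depth and mitochondrial percent.

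Further B cell genes gave the same picture as the members when counted. Of 21 genes of B cell receptor signalling and identity, 0 were called at day 14 and 0 at day 28, by limma-trend or limma-voom. In limma-trend, 4.37% and 13.8% of all genes tested were called. At an unadjusted p under 0.05 the list had 2 and 1 genes, against 20.3% and 31% of all genes. The median log2 change of the list was -0.06 at day 14, with 5 of 21 above 0. At day 28 it was 0.12, with 17 of 21 above 0. Over all genes 49.58% and 46.29% were above 0. Silica day 28 replicate 1 held the highest level of the 24 libraries for 8 of the 21. Fcmr had the smallest p of the list. It averaged 10.3 ± 6.4 FPKM (SD, n = 6) in silica and 5.72 ± 2.19 FPKM in saline lungs at day 28. The log2 change was 0.67 (SE 0.27, limma adjusted p = 0.094). Silica day 28 replicate 1 had 22.5 FPKM of Fcmr, against at most 12.6 FPKM in the other libraries. Bank1, a B cell scaffold protein, had a log2 change of -0.44 (adjusted p = 0.167) and Ebf1, an early B lineage factor that other lung cells also express, of -0.41 (adjusted p = 0.22), both at day 14. Pou2f2, the octamer-binding factor Oct-2, had 0.43 (adjusted p = 0.173) at day 28.

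Of 12 genes of the plasma cell programme 10 had a row, and 0 were called on either day by limma-trend or limma-voom. In limma-trend, 4.37% of all genes tested were called at day 14 and 13.8% at day 28. At an unadjusted p under 0.05 stood 1 of the 10 genes at day 14 and 4 at day 28. The shares of all genes were 20.3% and 31%. Derl3 and Fkbp11 were not analysed here. Xbp1, the transcription factor of the secretory programme that lung epithelium also uses, averaged 82.8 FPKM in silica and 69.9 FPKM in saline lungs at day 28, a log2 change of 0.24 (SE 0.0912, limma adjusted p = 0.076). Pigr, which carries polymeric antibody across epithelium, had a log2 change of 0.46 (adjusted p = 0.13) at day 28 and of -0.40 (adjusted p = 0.275) at day 14. Pim2 had -0.35 (adjusted p = 0.128) at day 28 and Cd38 -0.21 (adjusted p = 0.167) at day 14.

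Among ligands, chemokines and receptors of the B cell niche, 15 of 20 genes passed the filter, and Cxcl12 and Cxcr4 were called. Over all genes tested, 4.37% were called at day 14 and 13.8% at day 28. Cxcl12, a stromal chemokine that holds B cell precursors and plasma cells in bone marrow, averaged 31.5 ± 7.41 FPKM (SD, n = 6) in silica and 45.6 ± 3.53 FPKM in saline lungs at day 14, a fall with a log2 change of -0.54 (SE 0.136, limma adjusted p = 0.0214). This fall was not called without saline day 14 replicate 1 or silica day 14 replicate 4, 5 or 6, at -0.52 to -0.47. At day 28 it averaged 35.9 ± 6.53 FPKM in silica and 24.4 ± 4.07 FPKM in saline lungs, a rise of 0.53 (adjusted p = 0.0165). The change of the silica effect was 1.08 (adjusted p = 0.00861). Without the 3 saline day 28 libraries of high mitochondrial percent the day 28 log2 change of Cxcl12 was 0.34 (adjusted p = 0.385) and its change of the silica effect 0.89 (adjusted p = 0.0795), neither called. Both calls were also lost with the mitochondrial covariate (adjusted p = 0.509 and 0.101), and the day 28 call with only the groups compared (adjusted p = 0.0527). Cxcr4, the receptor of Cxcl12, rose at day 14, with 52.4 ± 4.19 FPKM in silica and 37.7 ± 1.83 FPKM in saline lungs, a log2 change of 0.46 (adjusted p = 0.0411), which was not called without any 1 saline library of that day or without silica day 14 replicate 1, 2, 3, 4 or 5 (0.44 to 0.48). The Cxcr4 call was also lost with no filter (adjusted p = 0.0605), with the length trend removed (log2 change 0.40, adjusted p = 0.119) and with a replicate block (adjusted p = 0.0769). It held in limma with only the groups compared (adjusted p = 0.00145), without the 3 libraries (0.0134) and with the mitochondrial covariate (0.0298). The call also held with a pseudocount of 0.1 (0.042), with median-of-ratios scaling (0.0497) and in limma-voom (0.0362). Many cells other than B cells express both genes.

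The ligands of the BAFF receptor and BCMA were not called. Tnfsf13b, which encodes BAFF, averaged 15.0 ± 6.05 FPKM (SD, n = 6) in silica and 12.3 ± 2.06 FPKM in saline lungs at day 28, a log2 change of 0.20 (SE 0.192, limma adjusted p = 0.511). Tnfsf13, which encodes APRIL, averaged 36.9 ± 8.83 FPKM in silica and 41.8 ± 3.05 FPKM in saline lungs at day 28, a log2 change of -0.20 (SE 0.13, adjusted p = 0.301). Silica day 28 replicate 1, with the highest BAFF receptor level, had the lowest level of the 24 libraries for both ligands, 7.66 FPKM of Tnfsf13b and 26.1 FPKM of Tnfsf13.

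Markers of other cells were mostly not called either. None of the 8 T cell, 5 tested follicular helper T cell and germinal centre, 6 tested lymphoid stroma, 5 macrophage, 4 neutrophil or 4 plasmacytoid dendritic cell genes was called by limma-trend or limma-voom in either silica comparison, nor was the 1 tested thymus gene, Cd1d1. Of the lymphoid stroma genes 2 had an unadjusted p under 0.05 at day 14 and 0 at day 28, and of the T cell and macrophage genes 0 on both days. Over all genes tested, 20.3% at day 14 and 31% at day 28 had such a p, and 4.37% and 13.8% were called. Of 3 erythroid genes, Slc4a1 fell at day 14, with 1.36 ± 0.595 FPKM (SD, n = 6) in silica and 2.99 ± 0.995 FPKM in saline lungs (log2 change -0.76, limma adjusted p = 0.0216); leaving out saline day 14 replicate 2, saline day 14 replicate 3, silica day 14 replicate 1 or silica day 14 replicate 4 ended this call (-0.71 to -0.64). Of 4 lung epithelial genes, Scgb1a1, the club cell secretory protein, fell at day 28 (log2 change -1.23, adjusted p = 0.0291) and was not called without the 3 libraries of high mitochondrial percent (-0.88, adjusted p = 0.392); leaving out saline day 28 replicate 1, saline day 28 replicate 2, silica day 28 replicate 3 or silica day 28 replicate 4 also ended the call (-1.14 to -1.08). The Scgb1a1 call was also lost with no filter (adjusted p = 0.234), with only the groups compared (adjusted p = 0.111), with the mitochondrial covariate (adjusted p = 0.506) and with a replicate block (adjusted p = 0.0566).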

How the data were processed

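The deposited tables hold FPKM made by the authors from poly-A selected RNA; the tools named are HISAT2 2.1.0, HTSeq 0.9.1, FastQC 0.11.9 and cutadapt 4.0, and the builds rn6 and Rnor_6.0, per the submitters' processing notes; the FPKM tool is not given in the sources used here. The deposited table used here also holds the authors' log2 fold changes, the same change as a linear ratio, and p-values and FDR for 3 comparisons. A second deposited table repeats the FPKM (largest difference 0).

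Values were analysed as log2(FPKM + 1), a scale that understates changes of low genes. A gene needed 0.5 FPKM or more in 6 or more libraries, which 20856 met, and testing was by limma 3.58.1 (limma-trend, R 4.3.3, two-sided) in 1 fit of 4 group means, with Benjamini-Hochberg adjustment over all genes tested in each of 5 contrasts. The fit was tested on simulated data. Whole reads and gene lengths were recovered from the FPKM steps for 100.0% of 31521 genes with a nonzero value, at a tolerance of 0.02 read; depth was 55.06 to 84.6 M (mega) reads, and a limit of 3 reads covers counting error only. Correlations used Pearson's r and Spearman's rho with 100000 permutations within groups (Python 3.11.15, numpy 2.4.6, pandas 2.3.3, scipy 1.17.1), and figures matplotlib 3.10.9.

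Groups and replicate numbers come from the sample labels, which call the libraries biological replicates. The members and the 12 further gene lists were chosen with earlier results of these data known. All members were named; of each list, the genes called in a silica comparison or, where none was, up to 4 with the smallest p, and for likeness the 8 named genes with the highest r; a few results are not reported here. Other genes named were chosen after their values were seen. A planned display of proteins was not made. Alternatives tried were no filter, a pseudocount of 0.1, median-of-ratios scaling, removal of the length trend, only the groups compared, the mitochondrial percent as a covariate, leaving out 3 libraries, a replicate block, each of 24 libraries left out in turn, and limma-voom on the recovered reads, chosen after seeing the data.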

Additional observations from a re-analysis of the deposited data

Results flagged for a closer look

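In 3 of the 32 sets of 6 libraries that the 8 genes and 4 groups give, 1 lung lay farther from the other 5 than Dixon's test allows at the 95% level, where the gap divided by the range must exceed 0.625. Chance gives about 1 in 20 such results when values are normally distributed and the sets independent. The test was run on linear FPKM, and genes that vary together over the same lungs are not independent sets. Tnfrsf13c, the BAFF receptor gene, was at 8.0 FPKM in silica day 28 replicate 1, against 0.848 to 2.2 FPKM in the other silica lungs of that day. Cxcr5, the receptor for Cxcl13, was at 4.07 FPKM in the same lung, against 0.516 to 1.71 FPKM in the others. Mzb1, the plasma cell chaperone gene, was at 14.1 FPKM in saline day 28 replicate 5, against 1.5 to 3.64 FPKM in the other saline lungs of that day. The flagged libraries had 4.1% and 4.08% of their reads on mitochondrial genes, and the part of library quality or of the sampled piece of lung was not tested.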

How the results depend on the processing

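Under all 33 alternatives, 0 of the 8 genes were called in each of the 5 contrasts, and the smallest adjusted p of any gene was 0.138; limma-voom gave 0 at an unadjusted p under 0.05. With a replicate block the count was 0 of 8 in each contrast. Same-numbered libraries of different groups did not on average deviate together over all genes tested (mean correlation -0.023 over 36 pairings, range -0.296 to 0.127). A pairing of animals that leaves little trace in these levels would not be seen this way. The labels do not say whether the numbers pair the animals. Of 1320 values of single genes under alternatives, 63 had the other sign, none of them of a called gene, and the cause was not tested.

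The opposite sign appeared for Tnfrsf17 with a pseudocount of 0.1 (change of effect 0.0086, saline over time -0.0306) and with limma-voom (day 28 0.192, change 0.519, silica over time 0.054, saline over time -0.465). For the change of effect in Cd79b it appeared with scaling (0.0162) and without the length trend (0.128). With the mitochondrial covariate it appeared for Jchain (change -0.761, saline over time 1.07), Tnfrsf17 (silica over time 0.0019) and Cxcr5 (saline over time -0.159). Without the 3 saline libraries it appeared for Cd79b (day 28 -0.0663, saline over time 0.167), Jchain (change -0.762, saline over time 0.878) and Tnfrsf13c (saline over time 0.0817).

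Leaving out 1 library in turn moved the log2 change across 0 for 19 of 40 results, with these ranges. They were, at day 14 Mzb1 -0.21 to 0.0541, Pax5 -0.27 to 0.0271, Tnfrsf17 -0.19 to 0.10. At day 28 Cd79b -0.0323 to 0.35, Jchain -0.53 to 0.23, Ms4a1 -0.0304 to 0.39. For the change of effect Cd79b -0.26 to 0.19, Jchain -0.18 to 0.58. Over time in silica Cd79b -0.37 to 0.0134, Jchain -0.0398 to 0.23, Ms4a1 -0.10 to 0.33, Mzb1 -0.23 to 0.0382, Pax5 -0.0506 to 0.35, Tnfrsf17 -0.24 to 0.0413. Over time in saline Cd79b -0.32 to 0.0175, Cxcr5 -0.0789 to 0.14, Jchain -0.46 to 0.29, Mzb1 -0.0694 to 0.45, Tnfrsf13c -0.32 to 0.0061.

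Counts over all genes, 911, 2872, 2071, 1 and 5255 in the 5 contrasts, moved by more than 1.5 times with the mitochondrial covariate (1444 at day 14, 26 at day 28, 2 for the change, 2 and 35 over time in silica and saline), without the 3 libraries (60, 8, 0 and 361 for the last 4), at day 28 with only the groups compared (580) and for the change with a replicate block (1227). Leaving out 1 library gave 576 to 1083 genes at day 14, 993 to 4429 at day 28 and 1062 to 3286 for the change. Low read numbers limit Tnfrsf17, Cxcr5 and Mzb1, and the spread between animals limits all 8.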

Other observations

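The 7 genes of lymphoid stroma and high endothelial venules differed in direction at day 14, and none was called. Means of Glycam1, Ccl19, Cxcl13 and Lta were lower in silica than in saline lungs, those of Ccl21 and Ltb higher. Glycam1 averaged 0.172 ± 0.332 FPKM (SD, n = 6) in silica and 15.9 ± 22.4 FPKM in saline lungs, a log2 change of -2.31 (SE 1.07, limma adjusted p = 0.221); the highest level was 0.829 FPKM in silica and 51.0 FPKM in saline lungs, and the lowest was 0 in both groups. Ccl19, a chemokine for Ccr7-bearing lymphocytes, averaged 3.40 ± 1.07 FPKM in silica and 9.50 ± 8.18 FPKM in saline lungs, a log2 change of -0.89 (SE 0.526, adjusted p = 0.356). Cxcl13 averaged 1.74 ± 1.31 FPKM in silica and 5.56 ± 7.67 FPKM in saline lungs (log2 change -0.72, adjusted p = 0.529). Ccl21, the most abundant of the 7, averaged 112 ± 18.6 FPKM in silica and 91.4 ± 10.7 FPKM in saline lungs (log2 change 0.28, SE 0.15, adjusted p = 0.309). Madcam1, which did not pass the filter, averaged 0.0614 FPKM in silica and 0.0592 FPKM in saline lungs. Ltb, a lymphocyte cytokine that maintains lymphoid tissue, averaged 8.6 ± 2.47 FPKM in silica and 5.46 ± 1.40 FPKM in saline lungs (log2 change 0.56, SE 0.198, adjusted p = 0.108).

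Within silica lungs Cxcl13 averaged 7.45 ± 6.31 FPKM at day 28 and 1.74 ± 1.31 FPKM at day 14, a log2 change of 1.48 (SE 0.584, unadjusted p = 0.0184, limma adjusted p = 0.475), and Ccl19 averaged 11.5 ± 11.4 FPKM at day 28 and 3.40 ± 1.07 FPKM at day 14, a log2 change of 1.18 (adjusted p = 0.531). Neither was called.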
